A study of Mus musculus with 6 samples.

Results

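The primitive streak and mesendoderm regulators examined here are 9 transcription factor genes, Eomes, Mixl1, Gsc, Evx1, Mesp1, Lhx1, Foxa2, Hhex and Tbx6. They were chosen by gene symbol, and every probe set annotated to 1 of these genes was taken. All 9 genes were found, with 11 probe sets among the 45037 tested, since Eomes and Lhx1 have 2 probe sets each. RNA of E14Tg2a cells, an established mouse embryonic stem (ES) cell line, was measured on 6 single-colour Affymetrix arrays, 2 for each of 3 groups. The first group received activin at 10 ng/ml for 2 h, the next received SB431542 at 5 µM for 24 h, and the control group was untreated. BMP4 (20 ng/ml) and LIF (1000 U/ml) were present in the defined N2B27 medium of all 3 groups, controls included. Activin and the inhibitor thus differ in time as well as in agent, and the labels name no vehicle for the untreated cells. All 6 arrays are of 1 cell line, and nothing in the labels tells whether the 2 arrays of a group are separate cultures. The p-values then measure the spread between arrays only, which may be technical.

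The primitive streak is the region of the early mouse embryo where epiblast cells leave the epithelium and form mesoderm and definitive endoderm, and mesendoderm is the name for cells on the way to either. Nodal, a ligand of the TGF-beta family, signals through activin type I receptors to Smad2 and Smad3, which enter the nucleus with Smad4 and bind DNA beside partners such as Foxh1. Activin uses the same Smads, and SB431542 is a small molecule that inhibits the kinase of these type I receptors (Alk4, Alk5 and Alk7). Nodal signalling is required for the streak in mouse embryos, and several of the 9 genes are known to respond to it. ES cells grown with BMP4 and LIF are kept undifferentiated.

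Promoters of 8 of the 9 genes were available from RefSeq (build GRCm38.p6), each from 250 bases before to 50 after the annotated start of the gene. They gave 10 promoters, since Foxa2 has 3 starts. Mixl1 was not among them. The 250 bases before the start are shown for Eomes, Evx1 and Hhex, because these genes had probe sets lower after SB431542 in at least 1 of the tests below, and for Mesp1, because it had none. The Eomes stretch lies at chr9:118477939-118478188 on the plus strand, that of Evx1 at chr6:52313248-52313497 on the plus strand, that of Hhex at chr19:37434591-37434840 on the plus strand and that of Mesp1 at chr7:79793591-79793840 on the minus strand. Capitals mark the matches to the 5 motifs described after the sequences, and GTCTG in Evx1 is CAGAC on the other strand.
Eomes: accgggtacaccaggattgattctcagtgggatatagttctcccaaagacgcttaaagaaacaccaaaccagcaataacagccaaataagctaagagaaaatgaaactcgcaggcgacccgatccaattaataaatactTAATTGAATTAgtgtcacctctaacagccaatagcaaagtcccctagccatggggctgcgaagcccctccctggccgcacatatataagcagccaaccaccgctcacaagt
Evx1: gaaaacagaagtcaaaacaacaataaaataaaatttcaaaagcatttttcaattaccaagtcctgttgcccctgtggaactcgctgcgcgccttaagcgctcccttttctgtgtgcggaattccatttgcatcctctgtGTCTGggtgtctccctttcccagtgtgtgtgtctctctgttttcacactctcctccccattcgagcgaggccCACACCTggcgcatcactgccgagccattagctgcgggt
Hhex: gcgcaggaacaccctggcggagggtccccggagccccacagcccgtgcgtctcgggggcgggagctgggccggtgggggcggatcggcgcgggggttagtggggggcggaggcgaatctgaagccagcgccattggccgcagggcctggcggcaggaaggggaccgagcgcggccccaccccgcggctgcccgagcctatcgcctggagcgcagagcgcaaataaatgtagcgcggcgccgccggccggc
Mesp1: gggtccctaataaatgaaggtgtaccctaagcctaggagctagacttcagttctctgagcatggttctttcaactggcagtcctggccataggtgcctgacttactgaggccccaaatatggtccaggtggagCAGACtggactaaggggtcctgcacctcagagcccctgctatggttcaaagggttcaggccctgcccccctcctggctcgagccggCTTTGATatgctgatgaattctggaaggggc
The motifs were searched on both strands of the 300-base windows, and none was required to be free of overlap with another. The paired homeodomain palindrome, TAAT and ATTA with any 3 bases between them, of the kind bound by paired-type factors such as Mixl1 and Gsc, was present in 0.487% of all 32851 promoters and in 1 of the 10. That match is the TAATTGAATTA in the Eomes promoter, from 111 to 101 bases before the start. The T-box half-site CACACCT was in 5.84% of all promoters and in 2 of the 10, those of Evx1 (39 to 33 bases before the start) and Mesp1 (just after the start). The Tcf/Lef element CTTTGAT was in 3.73% of all promoters and in 2 of the 10, that of Mesp1 and 1 of the Foxa2 starts. The Smad-binding element CAGAC, whose few letters are common, was in 49.6% of all promoters and in 5 of the 10. The Foxh1-type element TGTNNATT was in 12.2% of all promoters and in 0 of the 10. Base composition differed widely among the 4 stretches shown, with a GC content of 46.4% for Eomes, 49.6% for Evx1, 55.2% for Mesp1 and 76% for Hhex, against a median of 52.4% over all promoters. The number of CpG dinucleotides was 8 for Eomes, 10 for Evx1, 2 for Mesp1 and 32 for Hhex, against a median of 6. The motifs were chosen with these promoters in view, so the counts among the 10 are no test against the shares over all promoters. These matches describe letters in the windows and no binding was measured.

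The deposited values are intensities on a linear scale, given here as deposited or as log2. No detection call came with them, so levels were set against 27 control probe sets for Bacillus RNAs that gave no sign of having been added. Their log2 intensities ran from 3.00 to 5.09, and the highest of them on an array lay between 4.52 and 5.09. A probe set was counted as above background in a group only where both arrays exceeded that highest value. By this rule 7 of the 11 probe sets were above background after activin, 7 after SB431542 and 6 in control cells. Both Eomes probe sets and those of Mixl1, Evx1, Hhex and Mesp1 were above it in all 3 groups. Foxa2 cleared it on both arrays of each treated group and on 1 of the 2 control arrays. Gsc, Tbx6 and both Lhx1 probe sets were not above background in any group, so nothing below about their changes is a change between measured levels. With the 95th percentile of the control probe sets in place of their highest value, 7 of the 11 were above background after activin, 8 after SB431542 and 8 in control cells.

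**Figure D1:**
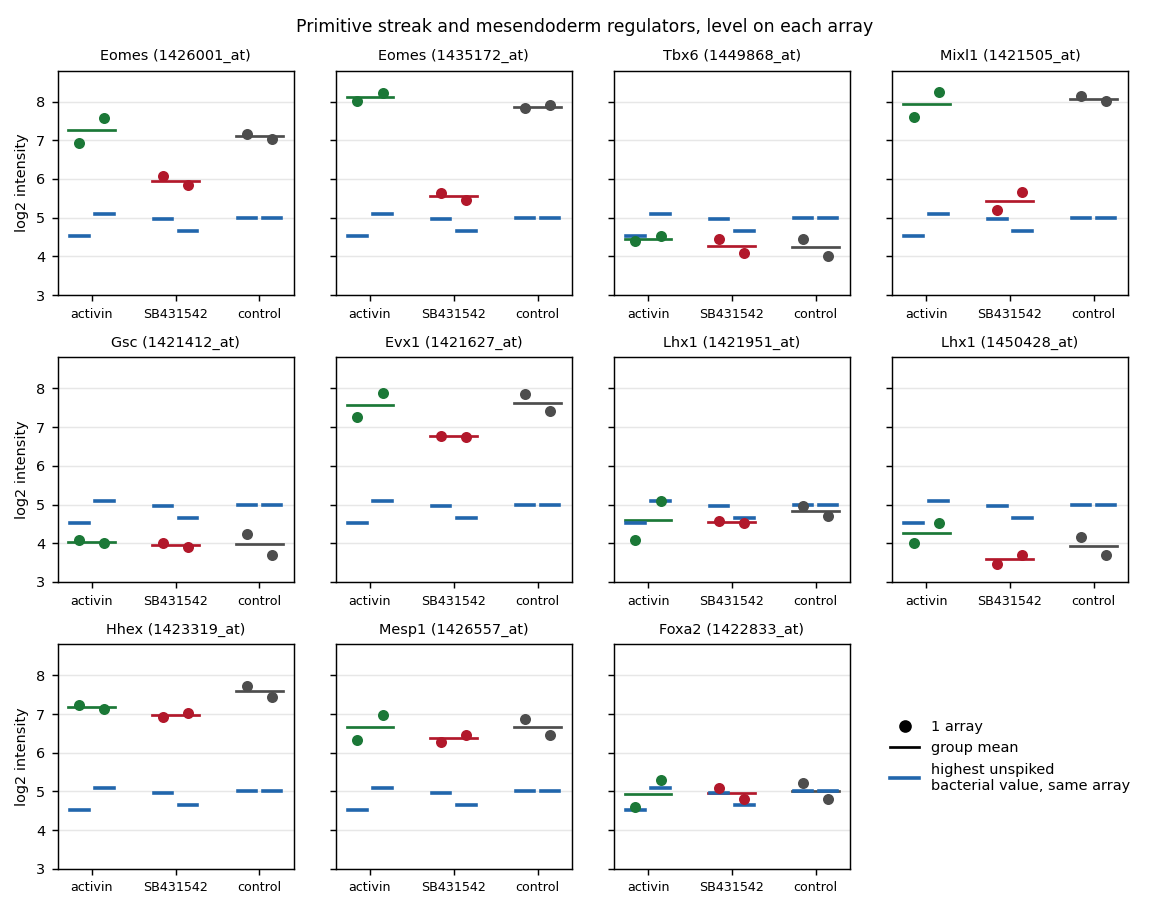
Log2 intensity of each of the 11 probe sets on each of the 6 arrays, by group, with the highest unspiked Bacillus control value for comparison. The SB431542 arrays of both Eomes probe sets and of Mixl1 sit apart from the other 4 arrays, while Gsc, Tbx6 and Lhx1 lie at or under the background in every group.

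Differences are log2 of the first named group minus the second, from limma, a linear model with a shared estimate of the spread, fitted to all probe sets and all 6 arrays. The adjustment for 45037 probe sets followed Benjamini and Hochberg, and 0.05 was the threshold. Beside limma's default, values are given with an intensity trend, in which the prior variance follows the level of a probe set and is estimated robustly. The trend is an alternative to the default and calls far more probe sets.

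The question of the SB431542 group is which transcripts depend on signalling through the activin and Nodal receptors in these cells. Eomes and Mixl1 were much dimmer after 24 h of the inhibitor, Evx1 and Hhex were dimmer by less, and Mesp1 and Foxa2 did not pass either test. In bulk RNA, fewer cells that express a gene and less RNA per cell cannot be told apart. By limma's default, 1 of the 11 probe sets fell, 1435172_at of Eomes, and 0 rose, where 0.0133% of all probe sets fell and 0.00222% rose. With the intensity trend 5 of the 11 were lower, both of Eomes and those of Mixl1, Evx1 and Hhex, where 1.60% of all probe sets were lower. The trend put 0 of the 11 higher, where 3.38% of all probe sets were higher. The SB431542 arrays lay under both control arrays for 6 of the 11 probe sets, where 22.1% of all probe sets did, and the sixth was an Lhx1 probe set under background. The 11 differences ran from −2.63 to 0.04, with a median of −0.36, against −0.03 over all 45037 probe sets. That median was the value of Lhx1 on 1450428_at and the upper end that of Tbx6, both under background in both groups.

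Among the T-box factors, Eomes is required in mouse embryos for cells to leave the streak as mesoderm and for definitive endoderm. Its probe set 1435172_at had intensities of 50 and 44 after SB431542, against 229 and 239 in control cells. Both inhibitor arrays were far under both control arrays. The difference was −2.32 (SE 0.14, 95% interval −2.67 to −1.97), a 4.99-fold lower intensity, with adjusted p = 0.0457 by limma's default and 3.46e-11 with the intensity trend. It was the ninth most negative of the 45037 differences. Log2 intensity of this probe set stood 0.69 and 0.82 above the highest unspiked control after SB431542, against 2.84 and 2.90 in control cells. The other Eomes probe set, 1426001_at, had 68 and 57 after SB431542, against 144 and 132 in control cells. It too did not overlap between the groups, and its difference was smaller, −1.15 (SE 0.24, interval −1.75 to −0.54), with adjusted p = 0.225 by limma's default and 0.00114 with the trend. The 2 Eomes probe sets thus had the same direction and disagreed in size. Their levels cannot be set against each other, since probe sets differ in how brightly they report.

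With any 1 array left out, limma's default called 0 of all 45037 probe sets, so the loss of the call of 1435172_at there is not particular to Eomes. Without each of the 6 arrays in turn, its difference between SB431542 and control stayed between −2.41 and −2.23 while the adjusted p by limma's default lay between 0.295 and 0.644. Mixl1 stayed between −2.86 and −2.40, and the other Eomes probe set between −1.27 and −1.02. With the intensity trend, the fits without the first or the second SB431542 array had infinite prior degrees of freedom (median). For most probe sets their own spread then carried no weight, so a call in those fits does not weigh that spread.

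Tbx6, a T-box factor of the paraxial mesoderm, had intensities of 22 and 17 after SB431542, against 22 and 16 in control cells. Its values were under background in both groups and overlapped.

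Mixl1, a paired-type homeobox factor of the streak whose loss in mice disturbs endoderm and axial mesoderm, had intensities of 37 and 51 after SB431542, against 281 and 257 in control cells. No other probe set of the 11 differed by more. The difference was −2.63 (SE 0.27, interval −3.30 to −1.95), a 6.19-fold lower intensity and the sixth most negative of all probe sets. Adjusted p was 0.127 by limma's default and 7.66e-11 with the intensity trend, so the larger difference was not called by the default on the values as deposited. With the columns shifted to 1 median, limma's default passed it (adjusted p = 2.90e-19), there with infinite prior degrees of freedom. Log2 intensity of Mixl1 stood 0.26 and 1.03 above the highest unspiked control after SB431542, against 3.13 and 3.01 in control cells. After the inhibitor it was thus close to background on 1 of the arrays.

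Evx1, an even-skipped homeobox factor of the posterior streak, had 109 and 108 after SB431542, against 230 and 172 in control cells. The difference was −0.87 (SE 0.25, interval −1.50 to −0.25), a 1.83-fold lower intensity, with adjusted p = 0.294 by limma's default and 0.00483 with the trend. Leaving out the first control array ended the trend's call, with the difference then at −0.66. With any 1 array left out the difference stayed between −1.08 and −0.66. The inhibitor arrays still lay 1.81 and 2.11 log2 above background.

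Hhex, a homeobox factor of the anterior definitive and visceral endoderm, had 121 and 131 after SB431542, against 212 and 174 in control cells. The groups did not overlap, and the difference was −0.61 (SE 0.15, interval −0.99 to −0.23), a 1.53-fold lower intensity. It passed by the trend alone (adjusted p = 0.253 by limma's default and 0.0494 with the trend). The trend's call was lost without the first control array (adjusted p = 0.286), the first SB431542 array (0.354) and the second SB431542 array (0.176).

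Gsc, a homeobox repressor of the anterior streak and organizer, had 16 and 15 after SB431542, against 19 and 13 in control cells. The LIM-homeobox gene Lhx1, required for head formation in mice, had 24 and 23 after SB431542 on probe set 1421951_at, against 31 and 26 in control cells. On its probe set 1450428_at, designed from the same transcript record, Lhx1 had 11 and 13 after SB431542, against 18 and 13 in control cells. These 3 probe sets were under background in both groups, and a level there could be anything up to it.

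Mesp1, a bHLH factor of the nascent mesoderm that gives rise to the heart, had 78 and 88 after SB431542, against 118 and 88 in control cells. Its groups met at 88, and the difference of −0.30 had an interval from −0.95 to 0.36 (adjusted p = 0.668 by limma's default and 0.617 with the trend). Foxa2, a forkhead factor of the anterior streak, node and endoderm, had 34 and 28 after SB431542, against 37 and 28 in control cells. Those values lay close to background, and the difference was −0.06 (interval −0.76 to 0.64, adjusted p = 0.945 by limma's default). Neither interval excludes a change of the size seen for Hhex.

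**Figure D2:**
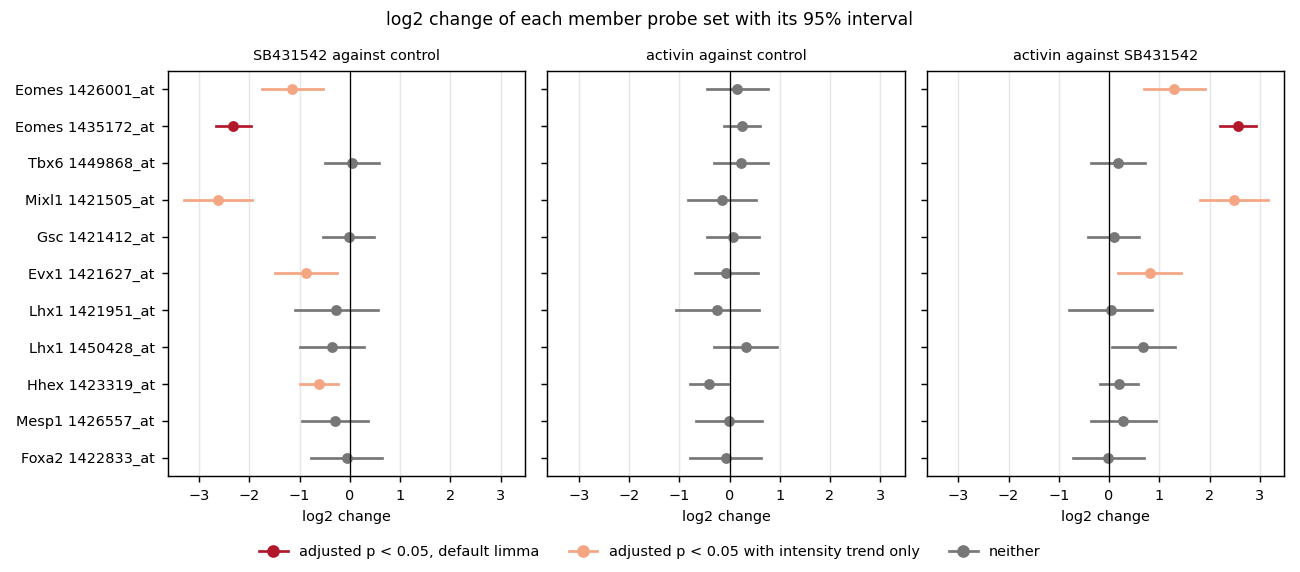
Log2 difference of each of the 11 probe sets in the 3 comparisons, as points with their 95% intervals from limma. The intervals of both Eomes probe sets, Mixl1, Evx1 and Hhex lie under 0 for SB431542 against control, and for activin against control only that of Hhex leaves out 0, without adjustment for the number of probe sets.

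Activin was added to ask which transcripts respond within 2 h. Of the 11 probe sets, 0 passed limma's default and 0 passed with the intensity trend in activin-treated cells against control. Over all probe sets the default passed 0%, with 2797 (6.21%) at an unadjusted p under 0.05, and the trend passed 0.195% as higher and 0.0200% as lower. The activin arrays lay above both control arrays for 1 of the 11 probe sets, where 14.7% of all did, and under both for 1 of the 11, where 14.5% of all did. The 11 differences ran from −0.41 to 0.33, with a median of −0.01, against −0.00 over all probe sets. The upper end was the value of Lhx1 on 1450428_at, under background in both groups.

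Eomes on 1435172_at had intensities of 259 and 297 after activin, against 229 and 239 in control cells. It was the probe set above both control arrays, by 0.25 (interval −0.11 to 0.60, adjusted p = 0.842 by limma's default). On 1426001_at Eomes had 122 and 192 after activin, against 144 and 132 in control cells, and there the groups overlapped. Mixl1 had 194 and 306 after activin, against 281 and 257 in control cells. The activin arrays of Mixl1 lay on either side of the controls, and the difference of −0.14 had an interval from −0.82 to 0.53 (adjusted p = 0.961 by limma's default). An increase of more than 0.53, or a decrease of more than 0.82, is outside that interval.

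Evx1 had 154 and 235 after activin, against 230 and 172 in control cells. The difference was −0.06 (interval −0.69 to 0.56) and the groups overlapped. Hhex, the probe set under both control arrays, had 151 and 139 after activin, against 212 and 174 in control cells. Its difference was −0.41 (SE 0.15, interval −0.78 to −0.03), and its adjusted p was 0.793 by limma's default and 0.649 with the trend. Mesp1 had 81 and 126 after activin, against 118 and 88 in control cells, and Foxa2 had 24 and 39 after activin, against 37 and 28 in control cells. Both overlapped with their controls. Gsc had 17 and 16 after activin, against 19 and 13 in control cells, and Tbx6 had 21 and 23 after activin, against 22 and 16 in control cells. Lhx1 had 17 and 34 on 1421951_at after activin, against 31 and 26 in control cells. On 1450428_at Lhx1 had 16 and 23 after activin, against 18 and 13 in control cells. These 4 probe sets overlapped between the groups and were not above background on any of these arrays.

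Of the 11 probe sets, 9 were brighter on the second activin array than on the first, as were 60.5% of all probe sets. The median intensity of the array was 49 on the second activin array and 38 on the first, so the higher level of the second array was common to the table. With SB431542 4 of the 11 were brighter on the second array, and in control cells 1 of the 11 was, where the shares over all probe sets were 39.8% with SB431542 and 31.3% in control cells. The array medians were 43 and 41 with SB431542, and 46 and 37 in control cells. Across the 6 arrays, Foxa2 had a Pearson correlation of 0.919 with the median log2 value of the array, Mesp1 of 0.786 and Evx1 of 0.468. Mixl1 had 0.132, Hhex −0.016, and Eomes 0.072 on 1435172_at and 0.321 on 1426001_at. The 4 probe sets that were not above background, of Lhx1, Tbx6 and Gsc, had values from 0.545 to 0.762. These values describe 6 arrays that may share their normalization. The part of the array level in any change of Evx1, Foxa2 or Mesp1 was not tested.

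Activin-treated cells against SB431542-treated cells sets an activated pathway against a blocked one, with 2 h of the agent against 24 h, and the effects of agent and time cannot be told apart. By limma's default 1 of the 11 probe sets was called, 1435172_at of Eomes as higher, where 0.0178% of all probe sets were higher. With the intensity trend 4 of the 11 were higher, both of Eomes and those of Mixl1 and Evx1, where 0.802% of all probe sets were higher. None of the 11 was lower by limma's default or the trend, where 0.00222% of all probe sets were lower by the default and 1.47% by the trend. The activin arrays lay above both SB431542 arrays for 6 of the 11, where 18.7% of all probe sets did. Among the 6 was Lhx1 on 1450428_at, which was not above background in either group. This comparison shares its SB431542 arrays with that against control, so it is no separate evidence on the inhibitor.

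Eomes on 1435172_at, with 259 and 297 after activin against 50 and 44 after SB431542, differed by 2.56 (SE 0.14, interval 2.21 to 2.92), a 5.91-fold higher intensity. Its adjusted p was 0.0252 by limma's default and 2.75e-12 with the trend, and the seventh highest difference of the table belonged to it. Mixl1, with 194 and 306 after activin against 37 and 51 after SB431542, differed by 2.49 (SE 0.27, interval 1.81 to 3.16), a 5.61-fold higher intensity. It passed with the trend (adjusted p = 2.87e-10) and not by limma's default (0.118). On 1426001_at Eomes differed by 1.30 (SE 0.24, interval 0.69 to 1.91), with adjusted p = 4.09e-04 with the trend and 0.288 by limma's default. The trend's call of that Eomes probe set was lost without the second activin array (adjusted p = 0.0528).

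Evx1 differed by 0.81 (SE 0.25, interval 0.18 to 1.44), with adjusted p = 0.0179 with the trend and 0.467 by limma's default. Leaving out the second activin array (adjusted p = 0.392), the first SB431542 array (0.0707) or the second SB431542 array (0.0701) ended the trend's call. Hhex differed by 0.20 (interval −0.17 to 0.58), since it lay under control in both treated groups. Its means were 7.18 ± 0.08 after activin, 6.98 ± 0.08 after SB431542 and 7.59 ± 0.20 in control cells (log2, SD, n = 2 each). Without any 1 of the 6 arrays, limma's default called 0 of all 45037 probe sets in this comparison, members included, and the adjusted p of Eomes on 1435172_at then lay between 0.414 and 0.907.

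Pearson correlations between members over the 6 arrays describe 6 points that may share their normalization. The members that passed a test were called for differing on these same arrays. The correlation was 0.960 between the Eomes probe sets, 0.972 between 1435172_at and Mixl1, and 0.932 between Mixl1 and Evx1. Hhex, which passed with the trend, had 0.725 with Mixl1, 0.688 with Evx1, 0.633 with 1435172_at and 0.565 with 1426001_at. Mesp1, which passed no test, had 0.850 with Evx1. Other genes whose log2 values ran most like those of the members were sought among 3402 probe sets above background in a group and with a range of at least 1 log2, for the 4 member probe sets with such a range. Closest to Eomes on 1435172_at was Notch4, a Notch receptor, with r = 0.999 and a difference of −1.35 between SB431542 and control. It was followed by Il17rd, an antagonist of Fgf signalling, with r = 0.996 and −0.92, and Slc6a15, an amino acid transporter, with r = 0.996 and −1.08. Closest to Eomes on 1426001_at were Prr18 with r = 0.998, Zic5, a zinc finger factor, with r = 0.997 and Sfrp1, a secreted Wnt antagonist, with r = 0.995. The 2 Eomes probe sets therefore had different nearest genes. Closest to Mixl1 were Nefl, a neurofilament subunit, with r = 0.995 and −1.29, Myof with r = 0.994 and −0.89, and Fgf8, a streak ligand, with r = 0.993, whose inhibitor arrays were under background. Closest to Evx1 were Elovl6, a fatty acid elongase, with r = 0.999, Pglyrp1 with r = 0.992 and Etohd2 with r = 0.988. The inhibitor arrays of Prr18, Pglyrp1 and Etohd2 were under background too. With 6 arrays in 3 groups and so many candidates, values of r near 1 are common.

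**Figure D3:**
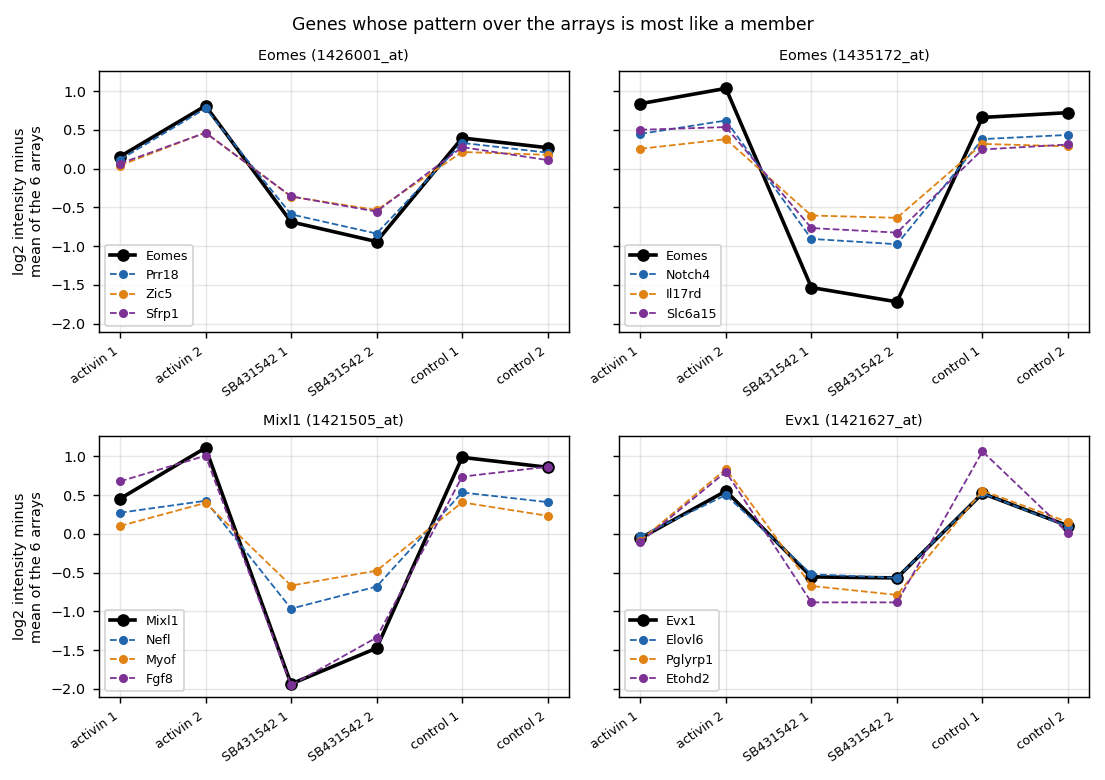
Log2 values over the 6 arrays of the member probe sets with a range of at least 1 log2 and of the 3 genes most like each, centred on their own means. In each panel the lines are lowest on the SB431542 arrays, and those of the 1426001_at panel are highest on the second activin array.

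The genes around these factors were taken from a list of 30 symbols of other primitive streak and mesendoderm genes. Of these symbols 27 had a probe set that stood for the gene, 24 of them above background in at least 1 group. T (brachyury) was not analysed here. After SB431542, 2 of the 27 fell by limma's default and 0 rose, where 0.0220% of all 18193 genes fell and 0.00550% rose. With the trend 6 were lower and 2 were higher, where 2.23% of all genes were lower and 4.25% higher. The median of the list was −0.34, against −0.00 over all genes, with 18 of 27 below 0. The 2 that fell were the secreted Nodal antagonists Lefty1 and Lefty2, known targets of the pathway. Lefty2 had log2 intensities of 3.81 and 4.00 after SB431542, against 8.96 and 8.95 in control cells, at least 17.8-fold lower because the inhibitor arrays were under background and the highest unspiked value stood in for them (adjusted p = 0.00296 by limma's default). Lefty1 differed by −5.53 (SE 0.30, adjusted p = 0.0341 by limma's default).

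The ligand Nodal itself had 9.32 and 9.50 after SB431542, against 10.53 and 10.49 in control cells, a difference of −1.10 (SE 0.13) with adjusted p = 4.47e-10 with the trend and 0.132 by limma's default. Fgf8, whose loss in mouse embryos blocks the exit of cells from the streak, had 3.91 and 4.52 after SB431542, against 6.60 and 6.73 in control cells, at least 3.64-fold lower (adjusted p = 6.64e-07 with the trend and 0.121 by limma's default). Sp5, a zinc finger factor of the Wnt pathway expressed in the streak, differed by −1.55 (SE 0.17, adjusted p = 8.72e-08 with the trend and 0.127 by limma's default). The cadherin Cdh2, which cells take up as they leave the streak, differed by −0.75, and the epithelial cadherin Cdh1 by 0.35 (adjusted p = 8.83e-04 for Cdh2 and 8.06e-04 for Cdh1 with the trend). Hand1, a bHLH factor of extraembryonic mesoderm and trophoblast, was higher by 1.09 (SE 0.17, adjusted p = 4.33e-06 with the trend and 0.178 by limma's default). With the trend the list thus held 6 lower genes and 2 higher ones, Hand1 and Cdh1.

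After activin 0 of the 27 passed by limma's default, where 0% of all genes did, and 1 was higher with the trend, where 0.137% of all genes were higher and 0.0110% lower. That gene was Lefty2, higher by 1.39 (SE 0.13, adjusted p = 2.03e-06 with the trend and 0.789 by limma's default). Fgf8 differed by 0.04, Nodal by 0.14 and Sp5 by −0.22, none past either test, and the list had a median of 0.05. In activin-treated against SB431542-treated cells, 2 of the 27 were higher by limma's default, where 0.0275% of all genes were, again Lefty1 and Lefty2. With the trend 8 were higher and 2 lower, where 1.26% of all genes were higher and 2.12% lower. The 8 were Nodal, Fgf8, Sp5, Cdh2, both Lefty genes and the Wnt ligands Wnt3 and Wnt8a, and the 2 were Hand1 and Cdh1. Wnt3, needed to form the streak in mice, had 4.75 and 5.46 after activin, against 3.91 and 3.70 after SB431542, where it was under background. The bound for Wnt3 was thus only at least 1.24-fold higher (adjusted p = 0.0155 with the trend and 0.303 by limma's default). Wnt8a had 6.07 and 6.23 after activin, against 4.86 and 4.91 after SB431542, at least 2.32-fold higher (adjusted p = 0.0261 with the trend).

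**Figure D4:**
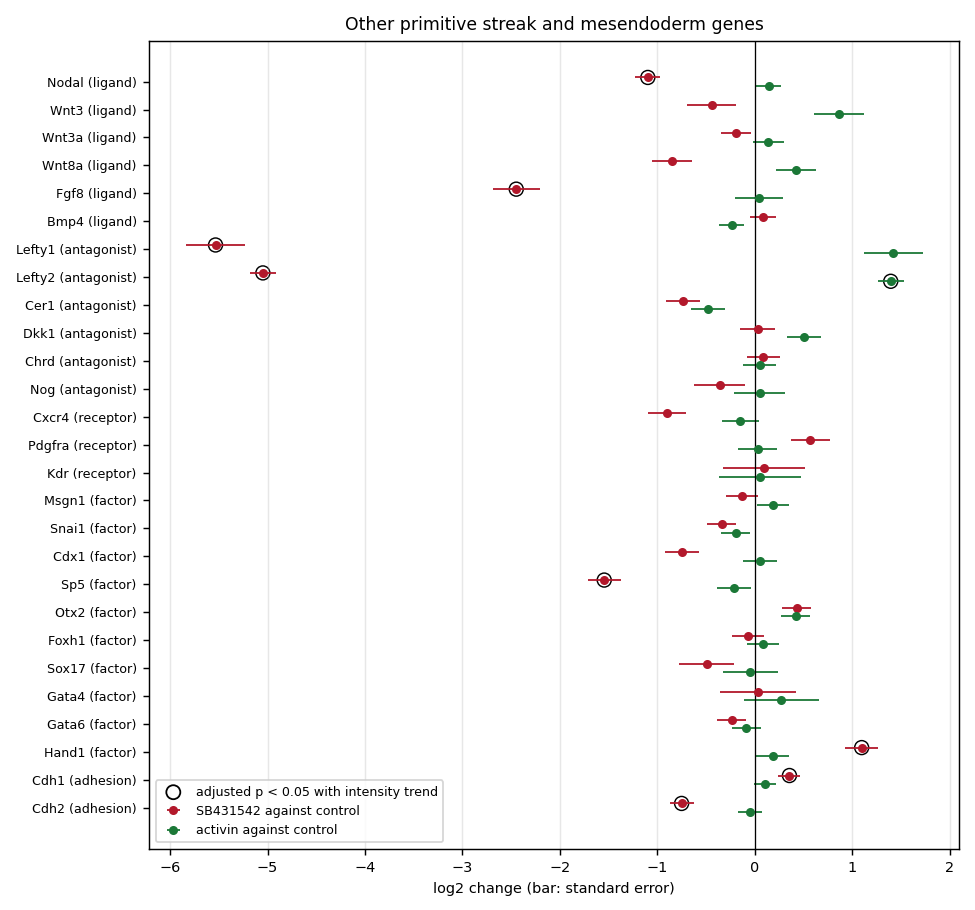
Log2 difference from control, with its standard error as a bar, of the 27 other primitive streak and mesendoderm genes after SB431542 and after activin, with 1 probe set per gene and a ring around those that passed with the intensity trend. After SB431542 Lefty1, Lefty2 and Fgf8 lie lowest and Hand1 highest, and after activin both Lefty genes lie highest.

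As a check of the treatments, 6 genes known to respond to Smad2 and Smad3 were counted, 3 of which are also in the list above. All 6 were lower after SB431542 with the trend, 2 of them by limma's default, and 2 were higher after activin with the trend, Lefty2 and the feedback regulator Pmepa1 (by 0.70). With the trend, 2.23% of all 18193 genes were lower after SB431542 and 0.137% were higher after activin. By limma's default 0.0220% of all genes were lower after SB431542. The closest paralogues of the members were also counted. Of these 14 genes, among them Tbr1, Tbx21, Evx2, Gsc2, Mesp2, Foxa1 and Foxa3, 0 passed by limma's default or the trend in any of the 3 comparisons. Over all genes the share called in 1 direction was at most 4.25%, so 0 of 14 is not particular to the paralogues. A total of 8 of the 14 were above background in at least 1 group, and the median difference between SB431542 and control was −0.21.

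The cell type label was checked on markers. After SB431542, 4.25% of all 18193 genes were higher and 2.23% were lower with the trend. By limma's default 0.00550% were higher and 0.0220% lower. Whether a list with 1 called gene differs from these shares was not tested. All 10 ES cell markers, among them Pou5f1, Nanog and Sox2, were above background in every group, and after SB431542 5 of them were lower (Pou5f1 by −0.43) and 1 was higher with the trend (Klf4 by 0.50), 0 by limma's default. Of 10 trophoblast markers, 8 were higher after SB431542 with the trend and 1 by limma's default, Ascl2 (by 2.03). Their summed intensity was 11132 and 10810 after activin, 18150 and 17930 after SB431542, and 13414 and 11604 in control cells. The trophoblast factors Cdx2 and Elf5 were not among the 8, and Elf5 was not above background in any group. Of 12 extraembryonic endoderm markers, some of which are made by the same cells as Hhex and Foxa2, 9 were above background in a group and 1 passed, Col4a1, as higher after SB431542 with the trend. Their summed intensity was 2379 and 2414 after activin, 2551 and 2544 after SB431542, and 2328 and 2210 in control cells, with Sox7, Gata4, Gata6, Afp and Cubn not above background on both arrays of either of these last groups. Primed epiblast markers summed to 6381 and 6684 after activin, 7419 and 6813 after SB431542, and 6274 and 6820 in control cells, with 2 of 5 lower after SB431542 by the trend (Fgf5 and Fgf15). The 6 neuroectoderm markers summed to 758 and 642 after activin, 689 and 615 after SB431542, and 691 and 650 in control cells, with 1 higher after SB431542 by the trend (Pax6). The 7 fibroblast markers summed to 361 and 406 after activin, 246 and 239 after SB431542, and 315 and 282 in control cells, with 1 lower after SB431542 by the trend (Col1a1). The brightest probe sets of the 9 members summed to 918 and 1215 after activin, 491 and 505 after SB431542, and 1179 and 1013 in control cells. The part of other cell types in the lower levels of Eomes, Mixl1, Evx1 and Hhex was not tested.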

How the data were processed

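Affymetrix arrays of 6 samples of E14Tg2a cells were used, with groups taken from the sample titles. Per the labels' protocols, column-purified RNA was reverse-transcribed from oligo-dT and biotin-labelled. The deposited values are intensities on a linear scale, whole numbers from 6 to 26405, with RMA named in the submitters' processing notes. The RMA software, and any further arrays normalized alongside, are not given in the sources used. Array medians as deposited ran from 37 to 49, so whether the 6 columns were quantile-normalized together is not settled. The rounding makes the dimmest values coarse. The design text names the smaller A array, while the table holds the 45101 probe sets of the whole-genome array. Some labels spell the inhibitor SB432542, and SB431542 of the treatment protocol is used.

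Intensities were converted to log2 with no further normalization. The 64 control probe sets were left out, and 34945 of the 45037 others have 1 gene symbol, 932 several and 9160 none. Genes were named only from probe sets with 1 symbol, and gene lists used each gene's brightest probe set by mean log2. The model in limma 3.58.1 (R 4.3.3) had a mean for each group over all 6 arrays, and eBayes had 3 residual and 2.51 prior degrees of freedom (34.3 with the intensity trend). The prior degrees of freedom were infinite with columns shifted to 1 median, with or without the trend. They were also infinite with the trend when either SB431542 array was left out. With 2 arrays per group, their number limits the precision.

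All member probe sets are named. The plan was to name, from each gene list, up to 6 genes per comparison that passed, by smallest p. For the response genes and the ES cell and trophoblast markers, only some of these are named. Others were added after their values were seen. The members, gene lists and motifs were chosen with earlier results of these data known, and the motifs with the promoters in view. Alternatives were the intensity trend, quantile normalization of the deposited values, columns shifted to 1 median and a pseudocount of 16. Further alternatives were a filter on dim probe sets, a replicate block and each array left out. Crossed replicate numbers, the trend with shifted columns and the trend with each array left out were added after seeing the data.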

Additional observations from a re-analysis of the deposited data

How the results depend on the processing

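By limma's default, leaving out any 1 array gave 0 calls in each of the 3 comparisons, over all probe sets and among the members. The labels do not say whether arrays of the same title number belong together. Over 26433 probe sets, replicate differences correlated at −0.157 between activin and control, 0.0198 between SB431542 and control and −0.128 between activin and SB431542. These values do not settle whether the arrays are paired. With the replicate block, the calls numbered 0 for SB431542 against control, 0 for activin against control and 1 for activin against SB431542, with 0 members in each. With the activin numbers crossed they were 2, 0 and 3, again with 0 members. For SB431542 against control, 7 probe sets passed by default (1 higher, 6 lower), against 2242 with the intensity trend. Quantile normalization gave 40 (18 higher, 22 lower), shifted columns 791 (427 higher, 364 lower), the pseudocount 41 and the filter 29. For activin against control, 0 passed by default, against 97 with the trend (88 higher, 9 lower) and 78 with shifted columns. For activin against SB431542, 9 passed by default (8 higher, 1 lower), against 1024 with the trend, 49 with quantile normalization (30 higher, 19 lower), 412 with shifted columns (204 higher, 208 lower), 64 with the pseudocount and 56 with the filter. With the trend on shifted columns the calls numbered 873 for SB431542 against control, 37 for activin against control (23 higher, 14 lower) and 500 for activin against SB431542. With the trend and 1 array left out they ran from 947 to 2560, from 21 to 201 and from 402 to 1493 in that order of comparisons.

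Members called for SB431542 against control numbered 1 by default, 5 with the trend (3 to 5 with 1 array left out) and 4 with shifted columns, where Hhex was lost. For activin against SB431542 they numbered 1 by default, 4 with the trend (2 to 4 with 1 array left out) and 3 with shifted columns, where Evx1 was lost. No alternative called a member for activin against control. The sign of both Eomes probe sets, Mixl1, Evx1 and Hhex did not change under any alternative for SB431542 against control.

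Signs changed among members near 0. Gsc was at 0.12 for SB431542 against control with quantile normalization. Lhx1 on 1421951_at was at −0.10 for activin against SB431542 with quantile normalization and at −0.0062 with shifted columns. Leaving out 1 array gave ranges that crossed 0 for SB431542 against control of −0.19 to 0.27 (Tbx6), −0.29 to 0.25 (Gsc) and −0.26 to 0.14 (Foxa2). For activin against control they were −0.18 to 0.48 (Eomes on 1426001_at), −0.0015 to 0.46 (Tbx6), −0.47 to 0.19 (Mixl1), −0.20 to 0.34 (Gsc), −0.37 to 0.24 (Evx1), −0.74 to 0.26 (Lhx1 on 1421951_at), −0.33 to 0.31 (Mesp1) and −0.42 to 0.28 (Foxa2). For activin against SB431542 they were −0.0015 to 0.37 (Tbx6), −0.47 to 0.53 (Lhx1 on 1421951_at), −0.033 to 0.605 (Mesp1) and −0.36 to 0.34 (Foxa2). The cause was not tested. Dim probe sets such as Gsc, Tbx6 and Lhx1 have only a bound on their level.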
